A study of Homo sapiens with 9 samples.

Results

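The genes described here belong to the unfolded protein response and to the wider stress control of translation, 10 of the 64253 genes in the count table. They were chosen by symbol for their known function: the eIF2α kinases EIF2AK1, EIF2AK2, EIF2AK3 and EIF2AK4, the sensor ERN1 and its target XBP1, the sensors ATF6 and ATF6B, and the proteases MBTPS1 and MBTPS2. Their RNA was counted in EPC2, which the labels give as a normal squamous cell line from the human esophagus, with 3 libraries in each of 3 groups. The first group received a FOXF1 plasmid with Lipofectamine 2000, a lipid that carries DNA into cells, the second an empty vector with the same lipid, and the third was left untreated. All 3 groups are the same line with no other genetic change named, the sources used here give neither the promoter of the plasmid nor the time after transfection, and no group is labelled as lipid without DNA. The difference between empty vector and untreated cells therefore covers lipid and DNA together.

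Proteins that enter the endoplasmic reticulum are folded there by chaperones, and unfolded proteins are sensed by 3 kinds of membrane protein. The kinase PERK (EIF2AK3) phosphorylates the initiation factor eIF2α, which slows most translation and favours that of the transcription factor ATF4. The kinase and nuclease IRE1α (ERN1) splices XBP1 RNA so that it encodes an active transcription factor, and ATF6 travels to the Golgi, where the site-1 and site-2 proteases (MBTPS1 and MBTPS2) release its active part. The other 3 eIF2α kinases answer to heme loss and mitochondrial stress (HRI, EIF2AK1), double-stranded RNA (PKR, EIF2AK2) and uncharged tRNA (GCN2, EIF2AK4). Counts per gene show the amount of each RNA, and they show neither the phosphorylation of a kinase, nor the splicing of XBP1, nor the cleavage of ATF6.

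The 9 libraries held 34390666 to 39973289 counts, so that 3 counts, the limit for a gene with 0 reads, stand for 0.0751 to 0.0872 CPM, reads of a gene scaled to the size of its library. FOXF1 had 367, 184 and 141 reads in the plasmid libraries, 0, 0 and 6 in the empty vector libraries and 1, 0 and 0 in the untreated ones, which matches the labels. The labelled cell type was only partly borne out: of 8 squamous markers, 6 stayed below 1 CPM in every library, TP63 and SOX2 had 0 reads and KRT5 8 to 19, whereas SFN reached 95.8 to 115 CPM. Simple epithelial keratins (KRT7, KRT8 and KRT18) ran from 1055 to 1473 CPM, EPCAM from 3.85 to 5.69 CPM and CDH1 (E-cadherin) from 7.48 to 12.4 CPM, and the mesenchymal VIM and COL1A1 from 734 to 1718 CPM. The summed mesenchymal markers ran from 3269 to 3536 CPM with the FOXF1 plasmid, 3278 to 3398 CPM with the empty vector and 2670 to 2901 CPM in untreated cells, with COL1A2 at 0 reads. Whether the counting left out reads of TP63, SOX2 or COL1A2 was not tested, so these values of 0 are not read as lack of expression. Mitochondrially encoded genes took 14.1% ± 0.52 of the counts with the FOXF1 plasmid, 11.2% ± 0.76 with the empty vector and 20.9% ± 2.0 in untreated cells (SD, n = 3 each). The only check on that share was to remove those genes from the table. With them removed, the 5 calls between empty vector and untreated cells and the 3 between FOXF1 plasmid and untreated cells were the same genes. The library scaling was estimated anew after the removal, so this check cannot show how far the share shaped the other values. In bulk RNA, fewer cells with a transcript and less of it per cell cannot be told apart.

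All 10 genes passed the filter on low counts, with 252 to 7776 reads per library. None passed the test between the FOXF1 plasmid and the empty vector, where 0.0550% of the 16366 tested genes were called, 0.0550% as higher and 0% as lower (edgeR quasi-likelihood test, adjusted p below 0.05). That background of 9 higher and 0 lower genes rests on single libraries: it was 154 and 172 without empty vector replicate 1, and 1 and 0 without FOXF1 replicate 2. DESeq2 and limma-voom also called 0 of the 10. In the edgeR test 4 had an unadjusted p below 0.05, all of them lower (ERN1, XBP1, MBTPS2 and EIF2AK2). The shares over all genes at that level were 5.09% higher and 4.34% lower. The median log2 fold change of the 10 genes was -0.13, beside -0.01 over all genes. With the empty vector 4 of the 10 rose (XBP1, ATF6, EIF2AK3 and ERN1) and EIF2AK1 fell, against a background of 19.6% of genes called, 10.2% higher and 9.37% lower. With the FOXF1 plasmid XBP1 and ATF6 were higher than in untreated cells and EIF2AK1 was lower, against 8.52% of genes called, 4.63% higher and 3.89% lower. The median of the 10 log2 fold changes was 0.27 for empty vector against untreated cells (0.04 over all genes) and 0.05 for FOXF1 plasmid against untreated cells (0.02 over all genes). Both of these comparisons use the same 3 untreated libraries, so they are not independent of each other.

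**Figure D1:**
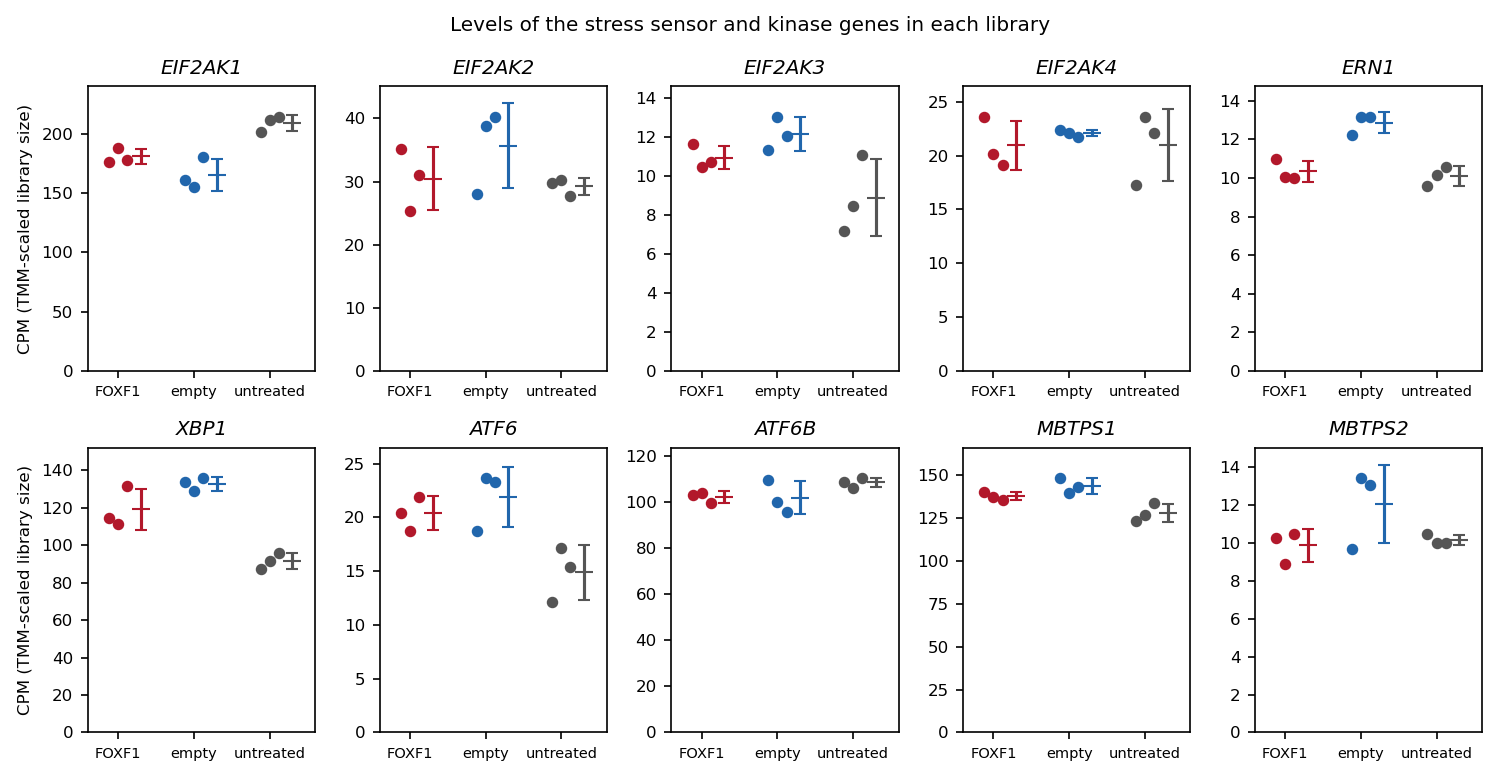
Level of each gene in CPM on TMM-scaled library size (vertical axes from 0) in the 3 libraries of each group (points), with the group mean and SD beside them. XBP1 lies above all untreated libraries in both transfected groups and EIF2AK1 below all of them, while EIF2AK2 and MBTPS2 have 1 low empty vector library.

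Libraries without overlap were counted as a second description. All 3 empty vector libraries were above all untreated ones for 5 of the 10 genes (17.4% over all genes) and below them for 1 (15.3%). For FOXF1 plasmid against untreated cells the counts were 3 above (14.1% over all genes) and 2 below (12.6%), and for FOXF1 plasmid against empty vector 0 above (7.33%) and 1 below (5.68%). At an unadjusted p below 0.05, 7 of the 10 genes differed between empty vector and untreated cells (17.4% of all genes higher and 14.2% lower). The number was 4 of 10 between FOXF1 plasmid and untreated cells (11.8% higher and 10.1% lower). In both comparisons EIF2AK1 was the only lower gene among them.

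EIF2AK1 (ENSG00000086232, chr7:6022244-6059230, minus strand, GRCh38), which encodes HRI, was the most abundant kinase RNA and the only 1 of the 10 genes that fell. It had 176, 188 and 178 CPM with the FOXF1 plasmid, 161, 155 and 181 CPM with the empty vector, and 202, 211 and 215 CPM in untreated cells. Every transfected library was below every untreated library, and the transfected groups overlapped. The log2 fold change was -0.34 ± 0.07 (SE) for empty vector against untreated cells, 0.79-fold (adjusted p = 0.000365), and -0.21 ± 0.07 for FOXF1 plasmid against untreated cells, 0.86-fold (adjusted p = 0.0431). Scaled by library totals alone, which lifts the median of all genes between empty vector and untreated cells to 0.29, the values were -0.094 (adjusted p = 0.264) and -0.063 (adjusted p = 0.558). Relative to that median, the EIF2AK1 change with the empty vector was -0.38 under either scaling. The call for the FOXF1 plasmid was also lost without FOXF1 replicate 1 or 3 or without untreated replicate 2 or 3, with adjusted p from 0.0891 to 0.154. EIF2AK1 shares 532 exon bases, 9.59% of its exon length, with AIMP2 on the opposite strand, which had 1979 reads per library on average. The strand setting of the counting is not given in the sources used here, so reads of that stretch may belong to either gene.

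EIF2AK2 (ENSG00000055332, chr2:37099210-37157065, minus strand), which encodes PKR and is itself a target of interferon, had 35.2, 25.3 and 31.0 CPM with the FOXF1 plasmid, 28.1, 38.8 and 40.3 CPM with the empty vector, and 29.7, 30.2 and 27.7 CPM in untreated cells. Empty vector replicate 1 lay with the untreated libraries, and the other empty vector libraries were above all others. The log2 fold change was -0.23 ± 0.11 for FOXF1 plasmid against empty vector (adjusted p = 0.527) and 0.29 ± 0.11 for empty vector against untreated cells (adjusted p = 0.0635). Without empty vector replicate 1 both passed the threshold, at -0.37 (adjusted p = 0.0378) and 0.44 (adjusted p = 0.00127). The second value also passed with no filter on low counts, at 0.29 (adjusted p = 0.0133), and with library totals, at 0.54 (adjusted p = 0.003), which is 0.25 above the median of all genes under that scaling. For FOXF1 plasmid against untreated cells the value was 0.06 ± 0.11 (adjusted p = 0.811).

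The promoter of EIF2AK2 is shown because it holds a match to the interferon-stimulated response element, searched as GAAA, 2 bases of any kind and GAAA. Capitals mark the fixed letters of the match, which runs from positions -6 to 4 around the RefSeq start, where -1 is the base before the start. The stretch is chr2:37156977-37157096 of GRCh38.p14 and reads 5′ to 3′ on the minus strand, the strand of the gene.
EIF2AK2: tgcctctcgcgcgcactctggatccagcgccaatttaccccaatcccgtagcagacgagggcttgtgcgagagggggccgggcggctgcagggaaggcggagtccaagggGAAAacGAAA
This motif is found in 3.57% of the 35116 RefSeq promoter windows, which run from 250 bases before to 50 after a start, and in 1 of the 10 windows of the genes followed here. The windows cover 9 of the 10 genes, with 2 windows for XBP1 and none for EIF2AK1.

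EIF2AK3 (ENSG00000172071, chr2:88556741-88627576, minus strand), which encodes PERK, had 11.6, 10.48 and 10.7 CPM with the FOXF1 plasmid, 11.4, 13.0 and 12.04 CPM with the empty vector, and 7.16, 8.43 and 11.1 CPM in untreated cells. All empty vector libraries exceeded the untreated ones, although the lowest of them (11.35 CPM) lay close to untreated replicate 3 (11.06 CPM). EIF2AK3 rose 1.37-fold with the empty vector, a log2 fold change of 0.45 ± 0.14 (adjusted p = 0.0172). The call was lost with offsets for GC content and length, at 0.24 (adjusted p = 0.16). Leaving out empty vector replicate 2 (adjusted p = 0.095), untreated replicate 1 (0.159) or untreated replicate 2 (0.0746) ended it too. With the FOXF1 plasmid the value was 0.30 ± 0.14 against untreated cells (adjusted p = 0.188) and -0.15 ± 0.13 against the empty vector (adjusted p = 0.778). Without untreated replicate 3, the highest of its group, the value against untreated cells was 0.48 (adjusted p = 0.0309).

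EIF2AK4 (ENSG00000128829, chr15:39934146-40035591, plus strand), which encodes GCN2, had 23.5, 20.2 and 19.1 CPM with the FOXF1 plasmid, 22.3, 22.1 and 21.8 CPM with the empty vector, and 17.3, 23.6 and 22.1 CPM in untreated cells. The groups overlapped, and the log2 fold changes were -0.07 ± 0.11 for FOXF1 plasmid against empty vector, 0.07 ± 0.11 for empty vector against untreated cells and -0.0023 ± 0.11 for FOXF1 plasmid against untreated cells (adjusted p = 0.884, 0.701 and 0.994). With library totals the empty vector value passed, at 0.31 (adjusted p = 0.0457), which is 0.025 above the median of all genes under that scaling.

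Among the 4 kinases, counts per kilobase of exon gave EIF2AK1 83.2% ± 2.0 of the summed level with the FOXF1 plasmid, 80.1% ± 1.8 with the empty vector and 86.1% ± 0.63 in untreated cells (SD, n = 3 each). The share of EIF2AK3 was 5.14% ± 0.32, 6.03% ± 0.62 and 3.72% ± 0.71 in the same order. Both transfected groups lay outside the range of the untreated libraries for these 2 shares. EIF2AK2 held 7.24% ± 1.3 with the FOXF1 plasmid, 8.90% ± 1.4 with the empty vector and 6.22% ± 0.46 in untreated cells, and EIF2AK4 held 4.47% ± 0.49, 4.98% ± 0.41 and 3.997% ± 0.51. The order of the smaller shares depends on the length used, here all annotated exon bases. Per kilobase of the principal transcript, untreated cells averaged 46.8 CPM for EIF2AK1, 3.82 for EIF2AK4, 2.91 for EIF2AK2 and 1.91 for EIF2AK3. These are shares of RNA and not of protein or activity.

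ERN1 (ENSG00000178607, chr17:64039142-64130819, minus strand), which encodes IRE1α, had the lowest level per exon length of the 10 genes in all 3 groups. It had 10.99, 10.1 and 9.97 CPM with the FOXF1 plasmid, 12.2, 13.2 and 13.2 CPM with the empty vector, and 9.58, 10.1 and 10.6 CPM in untreated cells. The empty vector libraries were above all 6 other libraries, and the FOXF1 plasmid libraries overlapped the untreated ones. ERN1 rose 1.27-fold with empty vector against untreated cells, a log2 fold change of 0.35 ± 0.12 (adjusted p = 0.0309). That call did not hold with RLE factors (adjusted p = 0.051), with no filter on low counts (0.0639), or without empty vector replicate 2 (0.111) or 3 (0.0854) or untreated replicate 1 (0.137) or 2 (0.0831). FOXF1 plasmid against empty vector gave -0.31 ± 0.12 (unadjusted p = 0.0106, adjusted p = 0.387, edgeR), the lowest unadjusted p of the 10 genes in that comparison. Against untreated cells the FOXF1 plasmid gave 0.03 ± 0.12 (adjusted p = 0.91).

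XBP1 (ENSG00000100219, chr22:28794555-28800597, minus strand), the transcription factor made active by IRE1α and a known target of ATF6, had 115, 111 and 132 CPM with the FOXF1 plasmid, 134, 129 and 136 CPM with the empty vector, and 87.3, 91.5 and 95.6 CPM in untreated cells. No transfected library overlapped the untreated ones. XBP1 rose 1.45-fold with empty vector against untreated cells, or 0.54 ± 0.07 on the log2 scale (adjusted p = 1.41e-06), and 1.30-fold with FOXF1 plasmid against untreated cells, 0.38 ± 0.07 (adjusted p = 0.00039). Both calls held under all 19 alternatives, with values from 0.44 to 0.78 and from 0.30 to 0.53. FOXF1 plasmid against empty vector gave -0.15 ± 0.07 (unadjusted p = 0.0308, adjusted p = 0.493, edgeR), and the highest FOXF1 plasmid library lay within the empty vector range. Without the mitochondrially encoded genes in the table the values against untreated cells were 0.53 with the empty vector (adjusted p = 1.28e-06) and 0.37 with the FOXF1 plasmid (adjusted p = 0.000495).

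The promoter of XBP1 is shown because it was the only window of the 10 with a match to the endoplasmic reticulum stress element (ERSE), the sequence through which ATF6 acts together with the factor NF-Y. ERSE was searched on both strands as CCAAT, 9 bases of any kind and CCACG, and capitals mark the fixed letters. The stretch is chr22:28800570-28800689 of GRCh38.p14, read 5′ to 3′ on the minus strand, and the match runs from positions -52 to -34 before the RefSeq start.
XBP1: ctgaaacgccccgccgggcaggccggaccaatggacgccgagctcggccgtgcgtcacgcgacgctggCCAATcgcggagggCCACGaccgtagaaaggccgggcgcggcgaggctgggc
ERSE is found in 27 of all 35116 windows, or 0.0769%. None of the 10 windows held ERSE-II (ATTGG, 1 base of any kind and CCACG, in 0.0541% of windows), the XBP1 element TGACGTGG (0.729%) or the ATF4 element TGATGNAA (3.62%). A match describes the letters of a window and does not show binding.

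The counts of XBP1 per kilobase of exon were 41.5 ± 5.2 times those of ERN1 with the FOXF1 plasmid, 37.1 ± 2.1 times with the empty vector and 32.5 ± 0.17 times in untreated cells (SD, n = 3 each). The transfected groups overlapped in this ratio, and both lay above all untreated libraries.

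ATF6 (ENSG00000118217, chr1:161766294-161964070, plus strand), the transcription factor that is cleaved in the Golgi, had 20.4, 18.8 and 21.9 CPM with the FOXF1 plasmid, 18.7, 23.7 and 23.3 CPM with the empty vector, and 12.1, 17.2 and 15.4 CPM in untreated cells. Every transfected library exceeded every untreated one, and the transfected groups overlapped. ATF6 rose 1.47-fold with empty vector against untreated cells, a log2 fold change of 0.56 ± 0.12 (adjusted p = 0.000759), a call that held under all 19 alternatives with values from 0.35 to 0.80. With FOXF1 plasmid against untreated cells the rise was 1.37-fold, 0.45 ± 0.12 (adjusted p = 0.012), and it was lost without FOXF1 replicate 3 (adjusted p = 0.0813) or untreated replicate 1 (0.126). FOXF1 plasmid against empty vector gave -0.11 ± 0.11 (adjusted p = 0.832).

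ATF6B (ENSG00000213676, chr6:32115264-32128253, minus strand), the paralog of ATF6 that is cleaved in the same way, had 103, 104 and 99.5 CPM with the FOXF1 plasmid, 110, 100 and 95.8 CPM with the empty vector, and 109, 106 and 111 CPM in untreated cells. It passed no test with TMM scaling: the log2 fold changes were 0.0040 ± 0.06 for FOXF1 plasmid against empty vector, -0.09 ± 0.06 for empty vector against untreated cells and -0.09 ± 0.06 for FOXF1 plasmid against untreated cells (adjusted p = 0.99, 0.362 and 0.474). With offsets for GC content and length the last of these was -0.16, just past the threshold (adjusted p = 0.04998). Per kilobase of exon, ATF6B counts were 10.97 ± 1.1 times those of ATF6 with the FOXF1 plasmid, 10.3 ± 2.1 times with the empty vector and 16.2 ± 3.1 times in untreated cells. Each transfected library had a lower ratio than each untreated library. The table holds 3 further rows named ATF6B, identifiers that GENCODE 29 does not place on the primary assembly, and all had 0 reads.

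MBTPS1 (ENSG00000140943, chr16:84053761-84116906, minus strand), the site-1 protease of the Golgi, had 140, 137 and 136 CPM with the FOXF1 plasmid, 148, 139 and 143 CPM with the empty vector, and 124, 127 and 134 CPM in untreated cells. The transfected libraries were all above the untreated ones, by log2 fold changes of 0.17 ± 0.06 with the empty vector (adjusted p = 0.0584) and 0.11 ± 0.06 with the FOXF1 plasmid (adjusted p = 0.331), which the test did not call. The empty vector value passed the threshold with a filter of 1 CPM in at least 3 libraries, at 0.17 (adjusted p = 0.0424). With library totals both passed, at 0.41 with the empty vector (adjusted p = 4.3e-05) and 0.25 with the FOXF1 plasmid (adjusted p = 0.00812), which are 0.12 and 0.088 above the medians of all genes under that scaling. FOXF1 plasmid against empty vector gave -0.06 ± 0.06 (adjusted p = 0.827).

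MBTPS2 (ENSG00000012174, chrX:21839636-21885424, plus strand), the site-2 protease that cuts within the membrane, had 10.3, 8.89 and 10.45 CPM with the FOXF1 plasmid, 9.69, 13.4 and 13.1 CPM with the empty vector, and 10.49, 10.01 and 9.98 CPM in untreated cells. As for EIF2AK2, empty vector replicate 1 was the low library of its group, here below all untreated libraries. The log2 fold change was -0.29 ± 0.13 for FOXF1 plasmid against empty vector (adjusted p = 0.498), 0.25 ± 0.13 for empty vector against untreated cells (adjusted p = 0.189) and -0.04 ± 0.13 for FOXF1 plasmid against untreated cells (adjusted p = 0.909). Without empty vector replicate 1 the value between empty vector and untreated cells was 0.39 (adjusted p = 0.0246), and with library totals it was 0.50 (adjusted p = 0.00963), 0.21 above the median of all genes under that scaling. Over the 9 libraries log2 CPM of MBTPS2 and EIF2AK2 had a Pearson r of 0.92, the highest of any pair among the 10 genes, with library and depth shared.

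**Figure D2:**
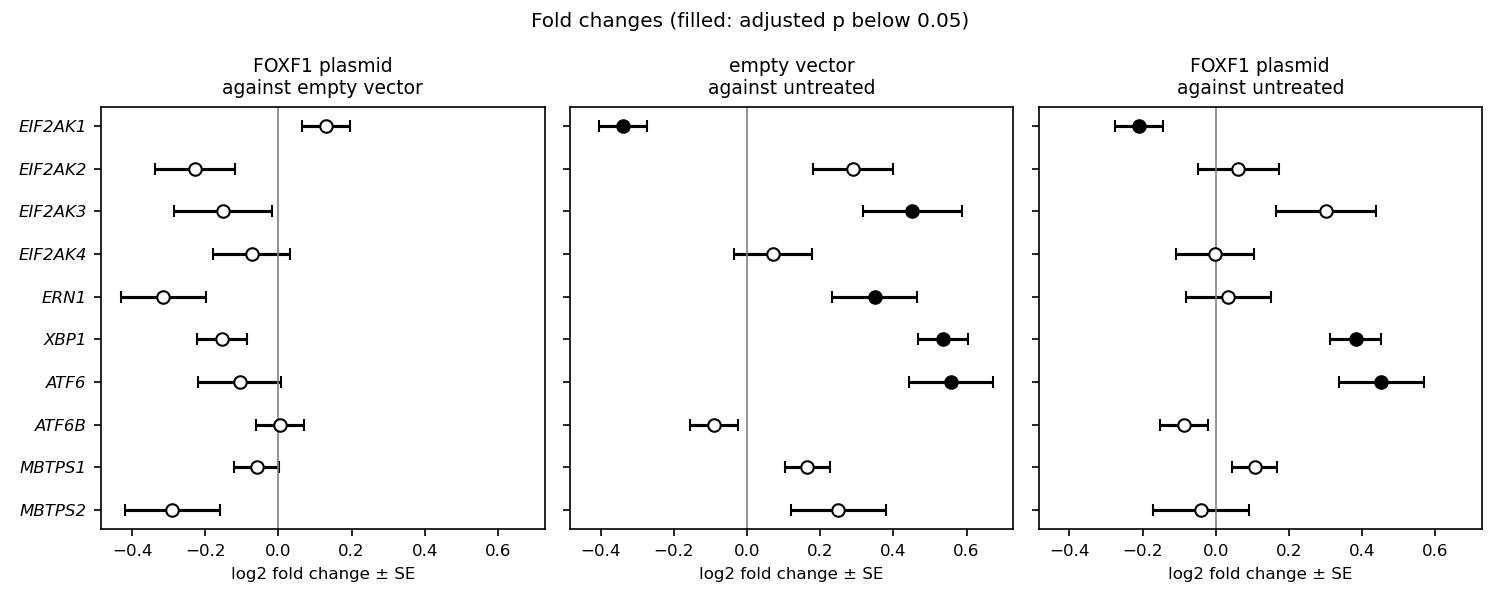
Log2 fold change of each gene with its SE (horizontal axis, shared by the 3 panels) in the 3 comparisons; filled points have an adjusted p below 0.05. No point is filled for FOXF1 plasmid against empty vector, 5 are filled for empty vector against untreated cells and 3 for FOXF1 plasmid against untreated cells.

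Levels between genes were compared as CPM per kilobase of exon, using all annotated exon bases of a gene. In untreated cells the order was EIF2AK1 at 37.7 ± 1.2, XBP1 at 30.2 ± 1.4, ATF6B at 29.9 ± 0.57 and MBTPS1 at 12.5 ± 0.51, with XBP1 and ATF6B overlapping. The other 6 genes were far lower, from EIF2AK2 at 2.72 to ERN1 at 0.93 CPM per kilobase. XBP1 led in the transfected groups, at 39.4 ± 3.6 with the FOXF1 plasmid and 43.8 ± 1.2 with the empty vector, ahead of EIF2AK1 at 32.6 ± 1.2 and 29.8 ± 2.4 without overlap. With the FOXF1 plasmid EIF2AK2 and ATF6 overlapped in range, as did EIF2AK3 and EIF2AK4, and MBTPS2 and ERN1. The order depends on the length used. With the length of the principal transcript, XBP1 came first in all 3 groups, at 64.4 with the FOXF1 plasmid, 71.7 with the empty vector and 49.5 in untreated cells, and EIF2AK1 at 46.8 overlapped it in untreated cells. EIF2AK4 then moved to the fifth place, and ERN1 remained last.

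**Figure D3:**
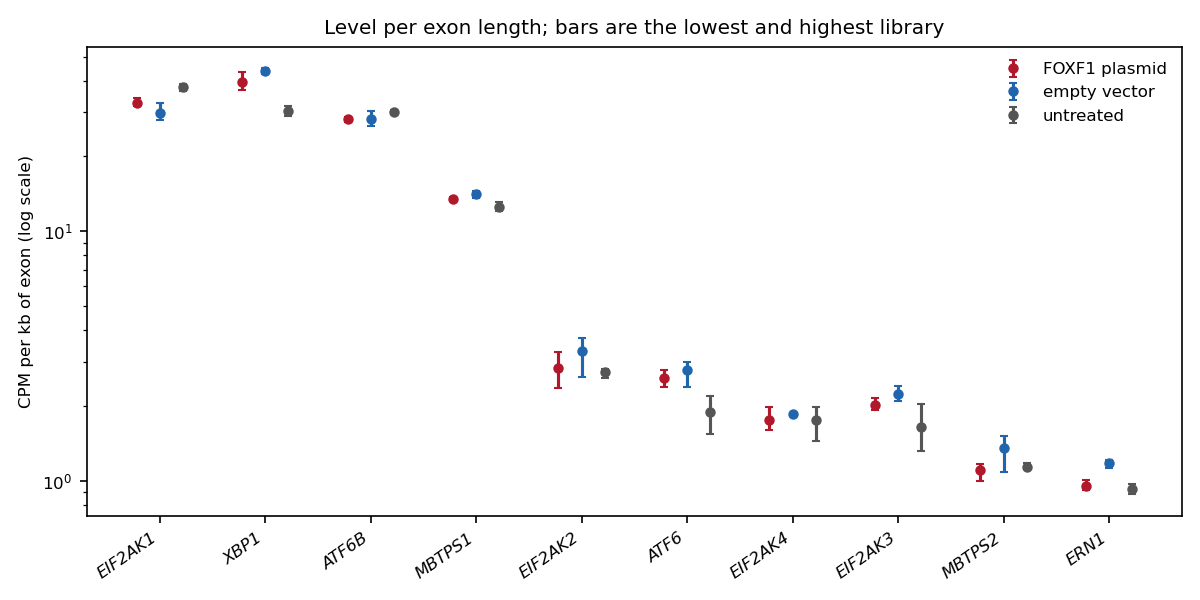
CPM per kilobase of exon (log scale) of the 10 genes, ordered by the untreated mean, as the mean of 3 libraries with bars to the lowest and highest library. The means of EIF2AK1, XBP1, ATF6B and MBTPS1 sit at 12.5 or above in every group and those of the other 6 at 3.32 or below.

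Base composition moved with several of these values. Over 16213 tested genes with an annotated length, Spearman's rho between the log2 fold change and the GC content of the exons was 0.39 for FOXF1 plasmid against empty vector, -0.27 for empty vector against untreated cells and -0.04 for FOXF1 plasmid against untreated cells, as descriptions across genes that are not independent. EIF2AK2, MBTPS2, ATF6 and EIF2AK3 have the lowest GC content of the 10 genes (39.6%, 40.2%, 41.3% and 42.2%, against a median of 50.4% over tested genes). With offsets for GC content and length, FOXF1 plasmid against empty vector gave -0.01 for EIF2AK2, -0.09 for MBTPS2, 0.06 for ATF6 and -0.02 for EIF2AK3. Over the same offsets ERN1 and XBP1, with 52.7% and 48.5% GC, kept -0.28 and -0.13. Between empty vector and untreated cells the offsets lowered EIF2AK2 to 0.05, MBTPS2 to 0.01 and ATF6 to 0.35 (adjusted p = 0.00482), and left XBP1 at 0.44 (adjusted p = 9.72e-07) and EIF2AK1 at -0.44 (adjusted p = 7.17e-07).

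**Figure D4:**
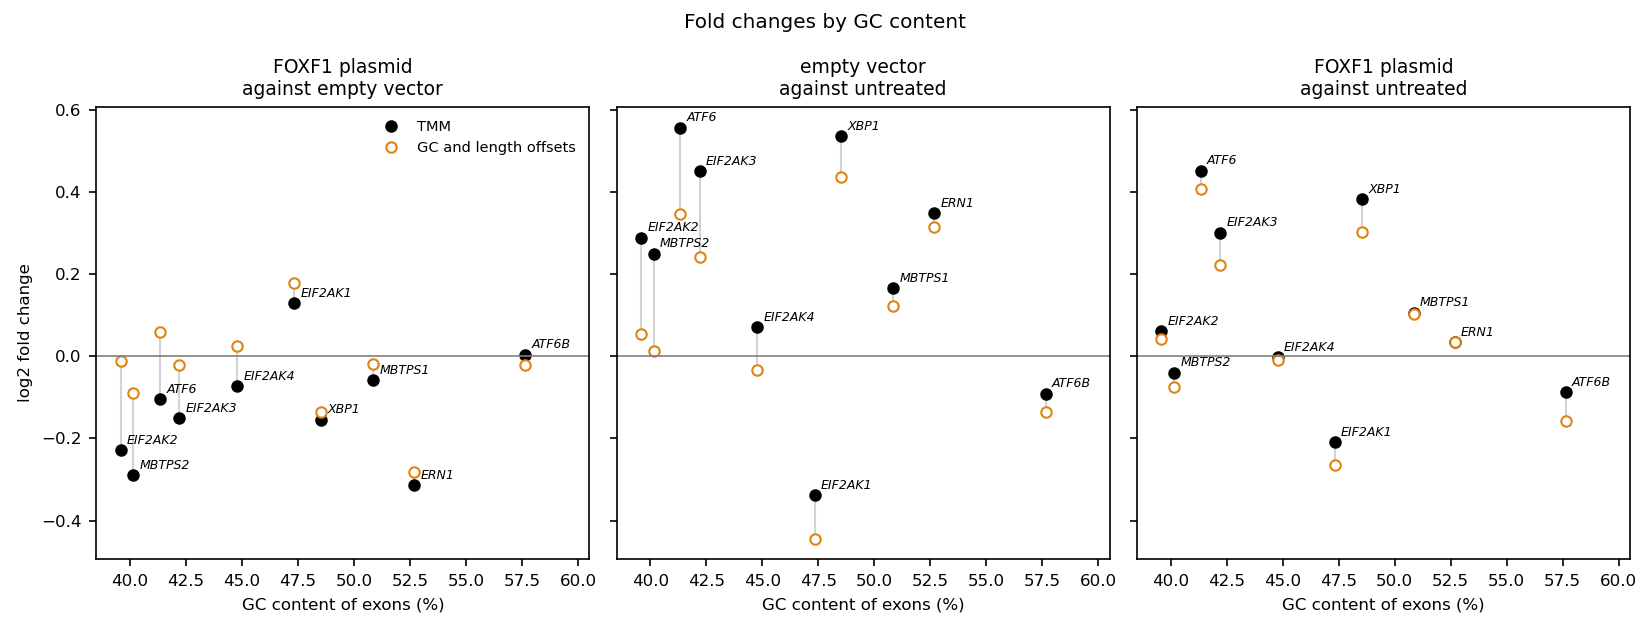
Log2 fold change of each gene (vertical axis) against the GC content of its exons in percent, from the TMM-scaled fit (filled) and with offsets for GC content and length (open), for the 3 comparisons. In the first and second panels the 4 genes with the lowest GC content move most, and XBP1 stays at 0.30 or above against untreated cells in both transfected groups.

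Genes that act after the sensors were read from lists of known targets. Of 13 ATF6 branch targets, chaperones and degradation factors of the endoplasmic reticulum, 12 rose and 0 fell with empty vector against untreated cells, with a median log2 fold change of 0.42 (0.04 over all genes). With FOXF1 plasmid against untreated cells 12 rose and 0 fell, with a median of 0.46 (0.02 over all genes). Over all genes 10.2% were called higher and 9.37% lower in the first of these comparisons, and 4.63% and 3.89% in the second. HSPA5, the chaperone BiP that holds the sensors inactive, averaged 951 ± 41.8 CPM with the FOXF1 plasmid, 1032 ± 64.6 CPM with the empty vector and 541 ± 30.6 CPM in untreated cells (SD, n = 3 each). It had 903, 977 and 974 CPM in the FOXF1 plasmid libraries, 999, 991 and 1107 CPM in the empty vector libraries and 521, 526 and 577 CPM in the untreated ones. Its log2 fold change against untreated cells was 0.81 ± 0.07 with the FOXF1 plasmid (adjusted p = 2.35e-09) and 0.93 ± 0.07 with the empty vector (adjusted p = 6.95e-11). The disulfide isomerase PDIA4 rose 2.35-fold and the chaperone HSP90B1 (GRP94) 1.80-fold with the empty vector, and 2.02-fold and 1.69-fold with the FOXF1 plasmid, against untreated cells. SEL1L, an adaptor of the degradation complex, was the single target not called, at 0.24 ± 0.11 with the empty vector (adjusted p = 0.14) and 0.01 ± 0.11 with the FOXF1 plasmid (adjusted p = 0.981). None of the 13 was called between the FOXF1 plasmid and the empty vector, where the median was -0.07.

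Of the 12 ATF6 branch targets with a promoter window, 5 held an ERSE match, as XBP1 did, and 3 held ERSE-II. Among the 18 XBP1 targets with a window, SERP1, a protein that stabilises membrane proteins under stress, held an ERSE match too. The matches are shown in the orientation of the motif, 5′ to 3′, with the fixed letters in capitals and GRCh38.p14 coordinates.
HSPA5 (chr9:125241391-125241409, minus strand): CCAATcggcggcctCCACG
HSP90B1 (chr12:103930216-103930234, plus strand): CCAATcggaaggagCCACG
HSP90B1 (chr12:103930321-103930339, minus strand): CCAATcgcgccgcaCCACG
CALR (chr19:12938384-12938402, minus strand): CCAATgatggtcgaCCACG
CRELD2 (chr22:49918554-49918572, minus strand): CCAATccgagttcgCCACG
PDIA6 (chr2:10812853-10812871, minus strand): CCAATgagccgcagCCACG
SERP1 (chr3:150546710-150546728, plus strand): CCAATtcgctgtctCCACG
XBP1 (chr22:28800603-28800621, minus strand): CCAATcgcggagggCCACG
The bases between the fixed letters differ from gene to gene. All 5 of the ATF6 branch targets with an ERSE match rose with empty vector against untreated cells, by log2 fold changes from 0.41 (CRELD2) to 0.93 (HSPA5). In the whole list 12 of 13 rose, so the rise does not set the genes with a match apart. SERP1 did not pass the test, at 0.05 ± 0.07 with the empty vector (adjusted p = 0.697) and 0.06 ± 0.07 with the FOXF1 plasmid (adjusted p = 0.666) against untreated cells.

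Of 24 targets of the ATF4 branch, through which the eIF2α kinases act, 22 rose and 1 fell with empty vector against untreated cells, with a median log2 fold change of 0.71. With FOXF1 plasmid against untreated cells 20 rose and 0 fell, with a median of 0.59. Beside these stand shares over all genes of 10.2% higher and 9.37% lower with the empty vector (median 0.04). With the FOXF1 plasmid they were 4.63% and 3.89% (median 0.02). STC2, a secreted glycoprotein, averaged 103 ± 5.3 CPM with the FOXF1 plasmid, 106 ± 0.64 CPM with the empty vector and 47.7 ± 1.6 CPM in untreated cells, 2.16-fold and 2.22-fold higher than untreated (adjusted p = 1.15e-12 and 4.65e-13). The stress cytokine GDF15 averaged 1.48 ± 0.40 CPM with the FOXF1 plasmid, 1.39 ± 0.29 CPM with the empty vector and 0.27 ± 0.15 CPM in untreated cells. Its log2 fold change against untreated cells was 2.42 ± 0.41 with the FOXF1 plasmid and 2.34 ± 0.41 with the empty vector (adjusted p = 0.000177 and 9.98e-05), and that of the cystine transporter SLC7A11 was 1.60 ± 0.42 and 1.87 ± 0.41 (adjusted p = 0.0136 and 0.0014). Both rest on few reads. In the untreated libraries GDF15 had 11, 4 and 14 reads and SLC7A11 had 13, 8 and 11. The highest library of any group had 73 and 55. ATF5, a related transcription factor, fell by 0.44 on the log2 scale with the empty vector (adjusted p = 0.000952). The element TGATGNAA was found in 5 of the 22 targets with a promoter window. None of the 24 was called between the FOXF1 plasmid and the empty vector, where MTHFD2 and ATF3 had the lowest unadjusted p, at -0.24 ± 0.09 and -0.44 ± 0.18 (adjusted p = 0.387 and 0.455).

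XBP1 targets, which move proteins into and out of the endoplasmic reticulum, were mixed. Of 19 tested, 9 rose and 4 fell with empty vector against untreated cells (median 0.14), and 6 rose and 2 fell with FOXF1 plasmid against untreated cells (median 0.13). The shares over all genes were 10.2% higher and 9.37% lower in the first of these comparisons (median 0.04). In the second they were 4.63% and 3.89% (median 0.02). The chaperone HSPA13 rose 2.596-fold with the empty vector, the oligosaccharyltransferase subunit RPN1 1.498-fold and the COPII coat protein SEC24D 1.49-fold. SSR1 and SSR4, subunits of the translocon-associated complex, fell with the empty vector, by 0.50 and 0.38 on the log2 scale (adjusted p = 9.6e-05 and 0.000222). DNAJB9, a further target, had 0 reads in all 9 libraries and was not tested. Its neighbour THAP5, which may overlap it, also had 0 reads in all 9 libraries. Whether the counting left out reads of this pair was not tested, so the 0 is not read as lack of expression. None of the 19 was called between the FOXF1 plasmid and the empty vector, where HSPA13 had -0.73 ± 0.20 (unadjusted p = 0.00131, adjusted p = 0.218, edgeR) and SSR4 0.21 ± 0.07 (adjusted p = 0.365).

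**Figure D5:**
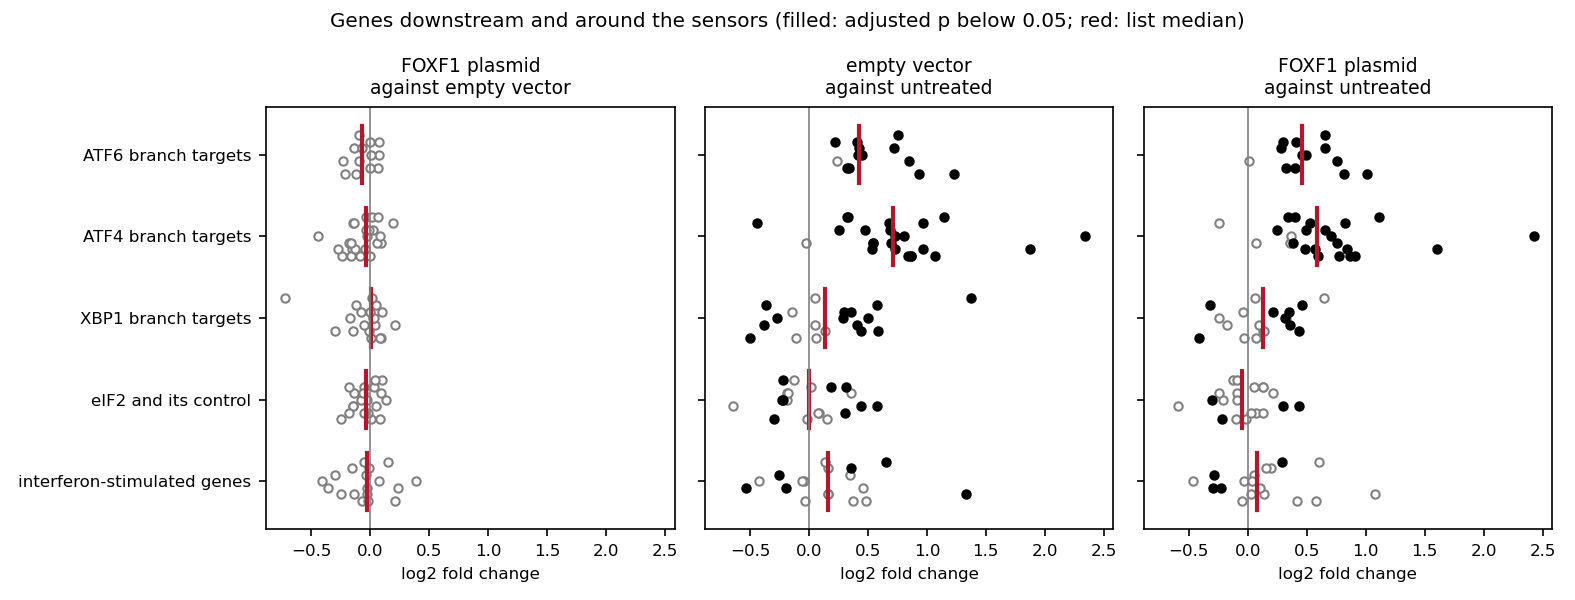
Log2 fold changes of the tested genes of 5 lists in the 3 comparisons, filled where the adjusted p is below 0.05, with the list median as a red bar. ATF6 and ATF4 targets sit right of 0 against untreated cells in both transfected groups, with medians from 0.42 to 0.71, and all points are open between the FOXF1 plasmid and the empty vector.

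The eIF2 complex and the factors that control it went both ways. Of 20 genes, 5 rose and 4 fell with empty vector against untreated cells (median 0.00032), beside 10.2% of all genes higher and 9.37% lower. With FOXF1 plasmid against untreated cells 2 rose and 2 fell (median -0.05), beside 4.63% and 3.89%. PPP1R15A (GADD34), which directs a phosphatase to eIF2α, averaged 41.3 ± 1.2 CPM with the FOXF1 plasmid, 45.8 ± 1.6 CPM with the empty vector and 30.6 ± 0.46 CPM in untreated cells. It was 1.35-fold higher with the FOXF1 plasmid (adjusted p = 0.000188) and 1.496-fold higher with the empty vector (adjusted p = 1.06e-06) than in untreated cells. The γ subunit gene EIF2S3 rose with the empty vector by 0.44 ± 0.08 (adjusted p = 0.000158). EIF2S1, which encodes eIF2α itself, fell by 0.23 with the empty vector (adjusted p = 0.0493) and by 0.30 with the FOXF1 plasmid (adjusted p = 0.0176), and EIF2B2, a subunit of the exchange factor of eIF2, fell by 0.30 (adjusted p = 0.00139) and 0.21 (adjusted p = 0.0386). The counts for this list moved with the scaling: with library totals alone 9 rose and 0 fell with the empty vector, and with GC content and length offsets 2 rose and 7 fell. The calls over all 16366 genes moved the same way. They were 5721 higher and 338 lower with library totals, and 1271 higher and 2450 lower with the offsets. These shifts are therefore not particular to the list.

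Partners of the sensors and further substrates of the proteases were counted in the same way. The shares over all genes were 10.2% higher and 9.37% lower with empty vector against untreated cells. With FOXF1 plasmid against untreated cells they were 4.63% and 3.89%. Of 8 tested partners of IRE1 and ATF6, TXNDC12, an oxidoreductase, rose with the empty vector by 0.66 ± 0.08 (adjusted p = 1.41e-06) and SCAP, which carries SREBP to the proteases, fell by 0.19 (adjusted p = 0.0409). With the FOXF1 plasmid 1 of the 8 passed, TXNDC12 at 0.41 ± 0.09 (adjusted p = 0.00193). ERN2, the second IRE1 gene, had 0 to 4 reads and was not tested. Among 7 tested other substrates of the site-1 and site-2 proteases, SREBF1, which encodes the lipid regulator SREBP-1, rose 1.62-fold with the FOXF1 plasmid (adjusted p = 2.35e-08) and 1.51-fold with the empty vector (adjusted p = 1.25e-07) against untreated cells. CREB3L1, a membrane-bound factor of secretory cells, rose 1.34-fold with FOXF1 plasmid against untreated cells (adjusted p = 0.00152). With empty vector against untreated cells it was not called, at 0.10 ± 0.09 (adjusted p = 0.463). None of the 7 was called between the FOXF1 plasmid and the empty vector. CREB3L1 had 0.32 ± 0.09 there (unadjusted p = 0.000714, adjusted p = 0.177, edgeR) and GNPTAB, a further substrate, -0.43 ± 0.18 (adjusted p = 0.475). Of 7 RNAs that IRE1 degrades in mouse cells, 3 rose and 0 fell with the empty vector (PDGFRB, COL6A1 and SCARA3, by 0.47, 0.33 and 0.30), and 2 rose with the FOXF1 plasmid. With only 7 genes, these counts are no result about decay by IRE1. PDGFRB is also among the mesenchymal markers, whose sum was higher in the transfected groups, and the part of cell state in these values was not tested.

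Interferon-stimulated genes, which include EIF2AK2 by function, showed no common direction. Of 18 genes, 3 rose and 3 fell with empty vector against untreated cells, beside 10.2% of all genes higher and 9.37% lower. With FOXF1 plasmid against untreated cells 1 rose and 3 fell, beside 4.63% and 3.89%. With so few genes, such counts are no result about the list. IFIT1, which binds foreign RNA, had 1.32, 1.65 and 2.05 CPM with the FOXF1 plasmid, 0.93, 2.43 and 2.56 CPM with the empty vector, and 0.37, 0.83 and 1.16 CPM in untreated cells. Empty vector replicate 1 was again the low library of its group and overlapped the untreated ones. IFIT1 rose by 1.33 ± 0.37 with the empty vector (adjusted p = 0.00943), while ISG15, a ubiquitin-like modifier, fell by 0.53 with the empty vector (adjusted p = 6.74e-06) and by 0.29 with the FOXF1 plasmid (adjusted p = 0.012), and the RNA-editing enzyme ADAR fell by 0.25 (adjusted p = 0.00521) and 0.28 (adjusted p = 0.00406). The 3 rises with the empty vector became 0 without empty vector replicate 2 or untreated replicate 1, and 6 with library totals alone. Over all genes, 1110 of 16714, 1026 of 16746 and 5721 of 16366 were called higher under these settings, in the same order. The 6 with library totals are thus close to the share over all genes. The interferon element was found in 9 of the 14 genes with a promoter window.

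For XBP1, ATF6, EIF2AK3 and EIF2AK1, all called between empty vector and untreated cells, the 2 most similar of 7897 well-expressed genes were found by Pearson r of log2 CPM over the 9 libraries. XBP1 was most like CCT3, a subunit of the cytosolic chaperonin (r = 0.985), and the copper transporter gene SLC31A1 (0.984). ATF6 was most like IARS, an aminoacyl-tRNA synthetase gene, and the monocarboxylate transporter gene SLC16A1 (0.977 each). EIF2AK3 was most like SFRP1, a secreted modulator of Wnt signalling (0.974), and EIF2S3 (0.972). EIF2AK1 was most like SYN1 (0.985), a gene known from synaptic vesicles, and the actin gene ACTB (0.982). The groups differ, so such a value reflects the order of the groups as well as the spread within them.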

How the data were processed

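RNA of EPC2 cells was sequenced in 9 libraries, prepared for polyadenylated RNA with strand information kept, per the labels' protocols. The authors deposited raw counts of reads for each Ensembl gene, per the file headers. Per the submitters' processing notes, bcl2fastq, STAR 2.5.2b and HTSeq were used with the build GRCh38. Annotation release, strand setting and handling of multimapping reads: not given in the sources used here. Genes and lengths come from GENCODE 29, which holds 56591 of the 64253 identifiers; promoter windows come from RefSeq (GRCh38.p14).

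Counts were filtered with filterByExpr (minimum count 10), scaled by TMM and fitted with edgeR 4.0.16 in R 4.3.3, with a mean for each of the 3 groups over all 9 libraries. Quasi-likelihood F tests were adjusted over 16366 genes by the Benjamini-Hochberg method, and a gene was called at an adjusted p below 0.05. The SE of a log2 fold change is its size over the root of F. CPM values use TMM-scaled library sizes, except those of marker genes, which use library totals. The fitting code was tested on simulated data. Alternatives were RLE factors, library totals, removal of mitochondrially encoded genes, other filters, DESeq2 1.42.0, limma-voom (limma 3.58.1), only the compared groups, a replicate block, offsets for GC content and length, and leaving out each library.

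The 10 genes and the 8 lists were chosen with earlier results of these data known. Named list genes are the 3 called ones with the largest change, up to 2 called against the majority, or, where none was called, the 2 with the smallest p; SEL1L, CRELD2, SERP1, DNAJB9 and THAP5 were named after their values were seen. The design text calls the replicates biological triplicates, and nothing names separate donors, so p-values cover only the spread among these 9 libraries. Replicates differed beyond sampling noise (chi-square per degree of freedom 8.88 to 24.1). Limits for 0 reads cover counting error only. The genes most similar to ERN1 over the libraries are not reported here.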

Additional observations from a re-analysis of the deposited data

How the results depend on the processing

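With 10 genes, single calls decide the counts. The 4 rises with the empty vector against untreated cells became 8, and the single fall 0, with library totals without a composition factor; leaving out a library gave 2 to 6 rises (2 without empty vector replicate 2, untreated replicate 1 or untreated replicate 2). For the FOXF1 plasmid against untreated cells, leaving out a library gave 1 to 3 rises (1 without FOXF1 replicate 3 or untreated replicate 1) and 0 to 1 falls, library totals gave 0 falls, and GC content and length offsets gave 2 falls, the second being ATF6B (-0.16, adjusted p = 0.04998). For FOXF1 plasmid against empty vector, leaving out a library gave 0 to 1 falls, the 1 being EIF2AK2 without empty vector replicate 1. Signs turned in the cases below, none of them called in the TMM-scaled fit or with the turned sign. For FOXF1 plasmid against empty vector, these were EIF2AK4 (0.025) and ATF6 (0.060) with GC content and length offsets. They also included ATF6B, at -0.093 with library totals, -0.011 with no filter on low counts, -0.0073 in a fit of only the compared groups, -0.021 with the offsets and -0.039 to 0.060 without a library. For the empty vector against untreated cells, EIF2AK4 gave -0.034 with the offsets and -0.063 to 0.16 without a library, although its positive value was called with library totals (0.31, adjusted p = 0.0457), and ATF6B 0.15 with library totals. For the FOXF1 plasmid against untreated cells, library totals gave 0.14 for EIF2AK4, 0.060 for ATF6B and 0.11 for MBTPS2, and limma-voom gave 0.0069 for EIF2AK4. Without a library, that comparison gave -0.055 to 0.17 for EIF2AK2, -0.14 to 0.079 for EIF2AK4, -0.016 to 0.060 for ERN1 and -0.082 to 0.017 for MBTPS2. The replicate block gave 0.00070 for EIF2AK4 there and changed no call among the 10 genes. Deviations from the group means had correlations from -0.090 to 0.084 between same-numbered libraries. With 3 libraries in a group, such values show no strong shared effect and cannot tell whether the numbers pair the libraries. Over all genes, 9 called between the FOXF1 plasmid and the empty vector became 16 with RLE factors or the block, 56 higher and 40 lower without a filter, and 106 higher and 2 lower with DESeq2. Without a library the counts ran from 1 to 154 higher (1 without FOXF1 replicate 2, 154 without empty vector replicate 1) and from 0 to 172 lower (172 without empty vector replicate 1). The empty vector against untreated cells gave 1676 higher and 1533 lower, against 5721 and 338 with library totals and 1271 and 2450 with GC content and length offsets. The FOXF1 plasmid against untreated cells gave 757 higher and 637 lower, against 2320 and 180 with library totals and 843 and 1543 with the offsets. The cause of these shifts was not tested. ATF4 branch rises with the empty vector stayed between 21 and 23 of 24 and ATF6 branch rises between 11 and 13 of 13 under all 19 alternatives.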
